A study of Mus musculus with 8 samples.

Results

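The genes described here are 10 targets of the ATF6 and XBP1 arms of the unfolded protein response: Hspa5, Hsp90b1, Dnajb9, Sdf2l1, Calr, Pdia4, Creld2, Manf, Herpud1 and Xbp1. They were chosen by name, and the identifiers of the count table, without their version, were matched to mouse symbols. All 10 were found among the 52636 genes of the table and all 10 passed the filter on low counts, which left 17378 genes to test. RNA was sequenced from S0 cells, the CD71- and Ter119- fraction that FACS separates from the lineage-depleted cells of the fetal liver at mid-gestation (E12.5). The series has 4 libraries from wild-type (WT) embryos and 4 from double knockout (DKO) embryos, which lack Vps13a and Vps13c, the genes of a pair of bridge-like lipid transfer proteins. The Vps13a knockout is constitutive, an exon having been removed in the whole body by Cre, and the loss of Vps13c came from an existing knockout line. DKO embryos came from parents that all lacked Vps13c, so that the WT embryos cannot have been their littermates, and litter and genotype cannot be told apart. The labels do not say that each library is a separate embryo, and p-values here measure the spread between these libraries.

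The endoplasmic reticulum (ER) folds secreted and membrane proteins with the help of lumenal chaperones, lectins and oxidoreductases. When unfolded proteins accumulate there, IRE1 splices the mRNA of the transcription factor XBP1, ATF6 is cut in the Golgi to release a transcription factor, and PERK phosphorylates eIF2alpha, which slows translation and favours that of ATF4. ATF6 and XBP1 raise the transcription of ER chaperones and of factors that return proteins to the cytosol for degradation, while ATF4, which other kinases of eIF2alpha also raise, drives amino acid supply and stress genes such as Ddit3 and Trib3. The 10 genes were therefore read beside a list of 29 genes of the PERK-ATF4 arm, to set the ER branch of the response next to the branch that has other inputs. Gene counts cannot show the splicing of Xbp1.

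Total counts were between 42114489 and 50886469 in the WT libraries and between 36981439 and 42587815 in the DKO libraries. Levels below are normalized counts, that is counts per TMM-scaled library size, brought back to the mean size of the 8 libraries. Vps13a was lower in DKO (log2 fold change -1.29, edgeR adjusted p = 0.00247), whereas Vps13c counts over the whole gene were not (0.49, edgeR adjusted p = 0.182) and do not check the labels. The Y-linked gene Ddx3y was expressed at 2911 to 3354 normalized counts in WT and at 2516 in DKO replicate 3, against at most 41.0 in DKO replicates 1, 2 and 4, so that sex differed between the WT libraries and these 3. Of 10 erythroid markers, 9 were measured and none of these was at 0 in any library. Their summed level was 667 to 777 CPM in WT and 618 to 951 in DKO, while 10 hepatoblast genes summed to 15615 to 21213 CPM in WT and 4480 to 17668 in DKO, so that the RNA labelled as erythroid precursor also held hepatoblast mRNA. Hepatoblasts are secretory cells, and in bulk RNA fewer cells of a type and less RNA per cell cannot be told apart.

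Promoters of these genes are shown because the sequence to which the ATF6 arm responds is known. The classical ER stress element is CCAAT, 9 unspecified bases and CCACG, and RefSeq windows of 250 bases before and 50 bases after the start of each gene were searched for it on both strands. A window existed for 9 of the 10 genes, all but Manf. The element was in 4 of the 9, in Hspa5, Hsp90b1, Calr and Creld2, against 0.119% of all 32851 promoter windows, and in 0 of 31 windows of the PERK-ATF4 arm. Hsp90b1 held 2 matches. The genes had been listed as ATF6 and XBP1 targets, so their motif content is a description and not independent evidence. In the windows of Hspa5 (chr2:34771840-34772139, plus strand), Hsp90b1 (chr10:86705395-86705694, minus strand) and Calr (chr8:84846882-84847181, minus strand), all of GRCm38.p6 and written 5′ to 3′ on the strand of the gene, capitals mark the element in either orientation.
Hspa5: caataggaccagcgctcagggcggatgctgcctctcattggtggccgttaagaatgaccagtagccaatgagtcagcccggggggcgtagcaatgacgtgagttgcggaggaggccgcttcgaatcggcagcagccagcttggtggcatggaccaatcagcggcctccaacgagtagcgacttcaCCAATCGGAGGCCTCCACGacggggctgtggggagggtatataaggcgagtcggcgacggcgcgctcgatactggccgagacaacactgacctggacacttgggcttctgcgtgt
Hsp90b1: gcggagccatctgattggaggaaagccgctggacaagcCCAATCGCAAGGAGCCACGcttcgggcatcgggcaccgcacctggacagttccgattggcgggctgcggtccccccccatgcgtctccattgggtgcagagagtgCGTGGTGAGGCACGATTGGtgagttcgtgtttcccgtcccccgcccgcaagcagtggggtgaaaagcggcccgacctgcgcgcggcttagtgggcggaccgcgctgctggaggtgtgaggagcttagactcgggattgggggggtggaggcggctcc
Calr: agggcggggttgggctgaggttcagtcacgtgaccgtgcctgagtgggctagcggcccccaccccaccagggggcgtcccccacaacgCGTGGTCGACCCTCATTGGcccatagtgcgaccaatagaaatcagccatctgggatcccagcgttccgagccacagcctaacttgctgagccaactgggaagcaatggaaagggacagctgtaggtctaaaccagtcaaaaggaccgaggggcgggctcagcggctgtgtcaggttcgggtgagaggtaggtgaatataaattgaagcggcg

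In Hspa5 the element lay between bases -65 and -47 from the start. The matches of Hsp90b1 lay at -212 to -194 and -107 to -89, that of Calr at -162 to -144 and that of Creld2 at -126 to -108. Pdia4 (chr6:47813463-47813762, minus strand), which had the largest decrease of the 10 genes, held no full element, and capitals in its window mark the separate CCAAT and CCACG parts, of which CCAAT also lies in 37.4% and CCACG in 32.8% of all windows. Both parts were found in 8 of the 9 windows, all but that of Xbp1.
Pdia4: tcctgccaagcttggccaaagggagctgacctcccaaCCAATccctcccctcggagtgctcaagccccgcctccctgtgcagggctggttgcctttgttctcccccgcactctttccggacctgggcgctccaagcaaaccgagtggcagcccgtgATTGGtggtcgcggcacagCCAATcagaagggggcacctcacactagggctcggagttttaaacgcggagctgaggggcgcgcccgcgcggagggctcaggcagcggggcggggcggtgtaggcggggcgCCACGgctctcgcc

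Herpud1 (chr8:94386179-94386478, plus strand) differed from the other 8 genes in that its window held the second ER stress element, ATTGG and CCACG with 1 base between them, at -52 to -42, and also the C/EBP-ATF response element TTGCATCA, a sequence bound by ATF4 dimers, at -112 to -105. The second ER stress element was in 0.0365% and the C/EBP-ATF element in 0.895% of all windows. The latter was also in 6 of the 31 windows of the PERK-ATF4 arm, those of Atf3, Chac1, Fgf21, Nupr1, Slc7a11 and Vldlr, and the window of Slc7a11 (chr3:50443564-50443863, minus strand), with 2 matches in capitals, is given beside that of Herpud1. A match is a run of letters and not a measured binding site.
Herpud1: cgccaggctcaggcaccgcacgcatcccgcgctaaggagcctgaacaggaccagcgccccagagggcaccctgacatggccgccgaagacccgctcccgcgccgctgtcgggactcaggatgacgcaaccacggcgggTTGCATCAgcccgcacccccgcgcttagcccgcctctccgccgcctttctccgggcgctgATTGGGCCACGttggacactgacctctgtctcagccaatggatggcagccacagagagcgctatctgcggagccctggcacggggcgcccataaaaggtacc
Slc7a11: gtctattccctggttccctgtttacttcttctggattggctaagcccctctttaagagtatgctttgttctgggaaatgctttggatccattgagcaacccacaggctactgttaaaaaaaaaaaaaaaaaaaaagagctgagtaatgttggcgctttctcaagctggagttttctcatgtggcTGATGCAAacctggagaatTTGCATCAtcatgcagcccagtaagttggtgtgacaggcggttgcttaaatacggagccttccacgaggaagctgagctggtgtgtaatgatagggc

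The comparison of DKO with WT asked whether the ER chaperone branch of the response moved in S0 cells that lack both proteins. Hspa5, Calr and Pdia4 were lower in DKO, where their levels fell by 24.3% to 35.5%, and the other 7 genes did not pass the test in either direction (edgeR quasi-likelihood test, adjusted p under 0.05). Over all genes tested, 10.8% were lower and 10.7% higher in DKO. No gene of the 10 was higher in DKO by edgeR, DESeq2 or limma-voom, and at an unadjusted p under 0.05 edgeR also gave 0. The median log2 fold change of the 10 genes was -0.15, against 0.03 over all genes tested, and 9 of the 10 values were negative. For 4 of the 10 genes the DKO libraries all lay below the lowest WT library, as they did for 14.6% of all genes tested, and for 0 of the 10 they all lay above the highest, against 13.5% of all genes. With a log2 fold change beyond 1 also required, 0 of the 10 genes were called, against 2.43% of all genes lower and 6.19% higher.

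**Figure D1:**
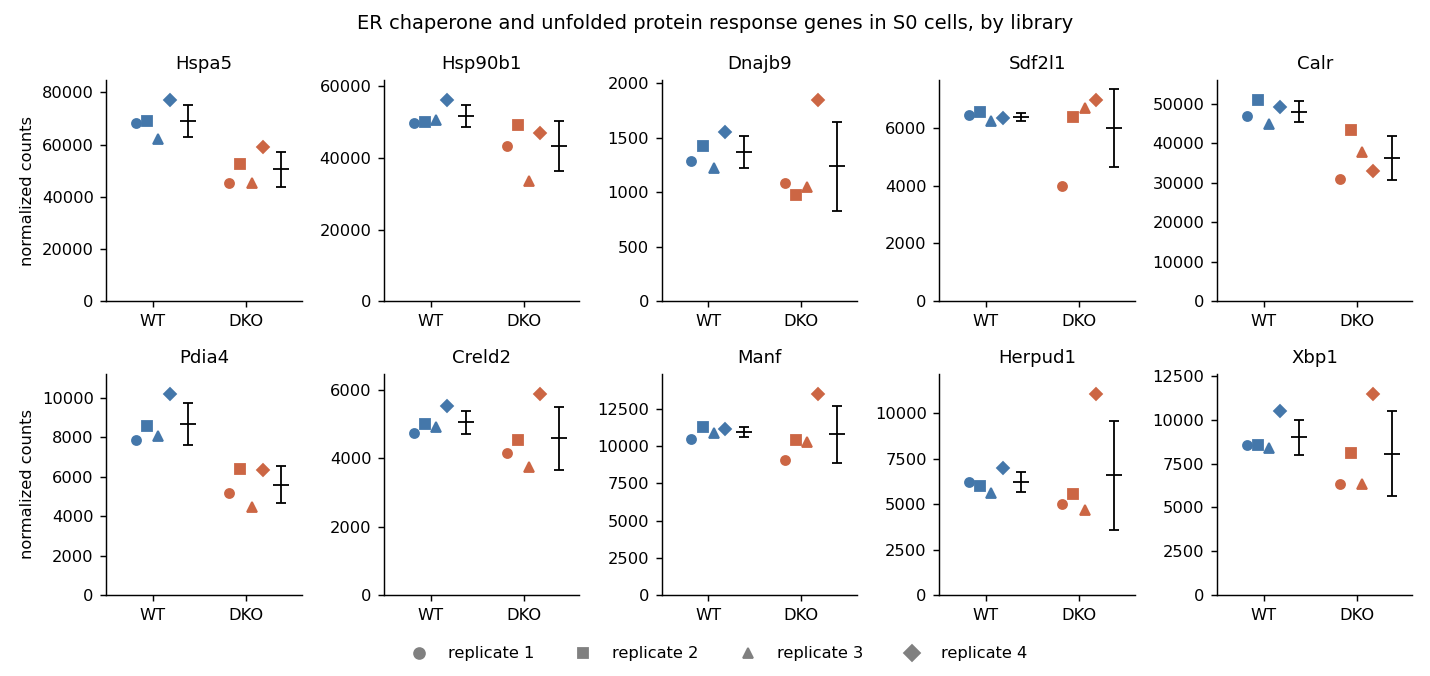
Normalized counts of the 10 genes in each WT (blue) and DKO (orange) library, with the mean and SD of each group in black and the replicate number given by the symbol. The DKO libraries sit below all WT libraries for Hspa5, Hsp90b1, Calr and Pdia4, and DKO replicate 4 sits above all WT libraries for the other 6 genes.

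Hspa5 (ENSMUSG00000026864.13, chr2:34771970-34777547 of GRCm38, plus strand) encodes BiP, the HSP70 chaperone of the ER lumen that also holds the stress sensors inactive. It had 68419, 69089, 62080 and 77141 normalized counts in WT replicates 1 to 4 and 45437, 52635, 45266 and 59243 in DKO replicates 1 to 4. The highest DKO library thus stayed under the lowest WT library. Mean levels were 69182 ± 6175 for WT and 50645 ± 6682 for DKO (SD over 4 libraries each), and the log2 fold change was -0.45 (SE 0.11, 95% interval -0.69 to -0.21, edgeR adjusted p = 0.0186). The exact permutation test, two-sided, gave p = 0.0286, the smallest that 4 libraries against 4 allow. The call was lost without WT replicate 1 (edgeR adjusted p = 0.0556), WT replicate 2 (0.0547) or WT replicate 4 (0.0602), with log2 fold changes of -0.46, -0.44 and -0.40.

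Hsp90b1 (chr10:86690209-86705509, minus strand) encodes GRP94, the HSP90 chaperone of the same compartment. It had 49559, 50054, 50405 and 56101 normalized counts in WT, against 43275, 49171, 33439 and 46801 in DKO. These groups did not overlap either, but the highest DKO library (49171) came close to the lowest WT library (49559), and DKO replicate 3 was far below the rest. The log2 fold change of -0.26 (SE 0.12, 95% interval -0.52 to 0.01) did not pass the test (edgeR adjusted p = 0.149). The exact two-sided permutation test gave p = 0.0286, as for Hspa5, Calr and Pdia4. It gives that value whenever groups of 4 libraries do not overlap, so it does not set those genes apart from Hsp90b1. A pseudogene on the opposite strand, 1810014B01Rik, overlaps the locus with 697 to 1424 counts per library, and the strand setting of the counting was not given in the sources used here.

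The J-domain co-chaperone Dnajb9, ERdj4, which hands clients to BiP and represses IRE1, had 1286, 1430, 1227 and 1555 normalized counts in WT, against 1083, 980, 1048 and 1849 in DKO. DKO replicates 1 to 3 were below all WT libraries and DKO replicate 4 was above them all. The log2 fold change was -0.15 (SE 0.20, edgeR adjusted p = 0.643). Without DKO replicate 4 it was -0.40 (edgeR adjusted p = 0.0492). Sdf2l1, a partner of the J-domain proteins that keeps BiP clients soluble, had 6432, 6540, 6216 and 6335 normalized counts in WT, against 4000, 6350, 6672 and 6958 in DKO. The WT libraries lay within a narrow range, with DKO replicate 1 far below it and DKO replicates 3 and 4 above it. Its log2 fold change was -0.09 (SE 0.15, 95% interval -0.43 to 0.25, edgeR adjusted p = 0.718).

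Calr (ENSMUSG00000003814.8, chr8:84841850-84846934, minus strand) encodes calreticulin, the soluble lectin chaperone and calcium store of the lumen. It had 46945, 51003, 44822 and 49135 normalized counts in WT, against 31065, 43461, 37802 and 32907 in DKO. All DKO libraries were below all WT libraries, and DKO replicate 4, the highest DKO library for most of the 10 genes, was among the low ones here. Mean levels were 47976 ± 2678 for WT and 36309 ± 5551 for DKO (SD over 4 libraries each), and the log2 fold change was -0.40 (SE 0.11, 95% interval -0.65 to -0.16, edgeR adjusted p = 0.0295). The exact two-sided permutation test gave p = 0.0286. The call was lost without WT replicates 1, 2 or 4 or DKO replicate 4 (edgeR adjusted p = 0.0782, 0.0938, 0.0814 and 0.0788), and with upper-quartile scaling (0.0749).

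Pdia4 (ENSMUSG00000025823.9, chr6:47796141-47813430, minus strand) encodes ERp72, a protein disulfide isomerase that forms and rearranges disulfide bonds of clients. It had 7869, 8558, 8053 and 10200 normalized counts in WT, against 5175, 6395, 4482 and 6332 in DKO, with no overlap between the groups. The means were 8670 ± 1061 and 5596 ± 931 (SD over 4 libraries each). The log2 fold change of -0.63 (SE 0.13, 95% interval -0.93 to -0.33, edgeR adjusted p = 0.0117) was the lowest of the 10, and the exact two-sided permutation test gave p = 0.0286. Its call was kept under all 18 alternatives of tool, scaling, filter, gene set, replicate block and left-out library, with log2 fold changes of -0.71 to -0.52.

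Creld2, an ER-resident protein with disulfide isomerase activity that is secreted under stress, had 4741, 5010, 4926 and 5532 normalized counts in WT, against 4170, 4539, 3759 and 5893 in DKO (log2 fold change -0.14, SE 0.13, edgeR adjusted p = 0.496). Manf, a BiP co-factor that is also secreted and protects cells from ER stress, had 10481, 11265, 10906 and 11189 in WT, against 9050, 10437, 10260 and 13535 in DKO (log2 fold change -0.02, SE 0.12, edgeR adjusted p = 0.929). For both genes DKO replicates 1 to 3 were under the WT range and DKO replicate 4 was over it. The interval of the difference ran from -0.44 to 0.16 for Creld2 and from -0.28 to 0.24 for Manf. The annotated span of Manf also holds Dcaf1 on the opposite strand, with 1124 to 2990 counts, and Rbm15b on the same strand, with 989 to 1944 counts.

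Herpud1, a membrane protein that organises the HRD1 complex for ER-associated degradation, had 6205, 6007, 5637 and 6963 normalized counts in WT, against 5009, 5562, 4660 and 11068 in DKO. DKO replicate 4 had 2.18 times the mean of the other 3 DKO libraries, which were all under the WT range. The log2 fold change over all libraries was 0.08 (SE 0.25, 95% interval -0.48 to 0.65, edgeR adjusted p = 0.844), and it was -0.28 without DKO replicate 4. Xbp1, the transcription factor that IRE1 activates, had 8560, 8565, 8407 and 10496 in WT, against 6342, 8113, 6323 and 11485 in DKO. DKO replicates 1 to 3 were again under the WT range and DKO replicate 4 was over it (log2 fold change -0.16, SE 0.19, 95% interval -0.57 to 0.26, edgeR adjusted p = 0.580).

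**Figure D2:**
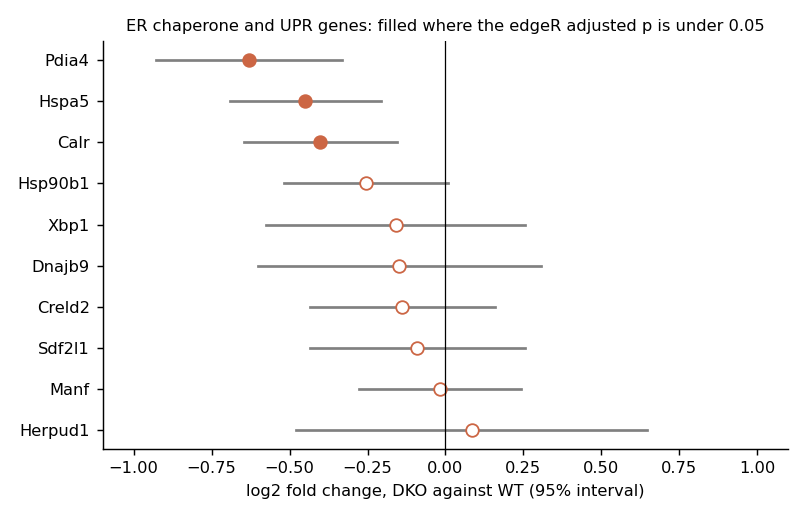
Log2 fold change of DKO against WT for the 10 genes with its 95% interval, filled where the edgeR adjusted p was under 0.05. Pdia4, Hspa5 and Calr lie at -0.63, -0.45 and -0.40, and the intervals of the other 7 genes reach across 0.

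The DKO libraries differed among themselves in their place beside the WT range. DKO replicate 1 was below all WT libraries for 10 of the 10 genes, DKO replicate 2 for 9 and DKO replicate 3 for 9. Over all genes tested, the share of genes for which such a library was below all WT libraries was 35.8%, 34.3% and 34.5%. DKO replicate 4 was below all WT libraries for 4 genes (34.9% of all genes), Hspa5, Hsp90b1, Calr and Pdia4, and above them all for the other 6, Dnajb9, Sdf2l1, Creld2, Manf, Herpud1 and Xbp1 (36.2% of all genes). The 3 largest ratios of DKO replicate 4 to the mean of the other DKO libraries were 2.18 for Herpud1, 1.78 for Dnajb9 and 1.66 for Xbp1, and the smallest was 0.88 for Calr. Among the WT libraries, replicate 4 was the highest for 7 of the 10 genes. The SD of the log2 level was larger in DKO than in WT for 10 of the 10 genes, and for 75.4% of all genes tested.

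Sex could be held constant in 1 comparison only, that of the 4 WT libraries with DKO replicate 3, the DKO library that expressed Ddx3y. This comparison was added after the data were seen. With 1 DKO library it has no replicate check, so that its values describe that library and no call is drawn from them. The log2 fold changes were -0.63 for Hspa5, -0.64 for Hsp90b1, -0.36 for Calr and -0.97 for Pdia4, and Herpud1, at 0.08 over all libraries, was at -0.43. Without DKO replicate 3, none of the 3 DKO libraries left expressed Ddx3y at the WT level, and 3 of the 10 genes were lower. DKO replicate 3 was also the library with the least hepatoblast mRNA, and the part of that difference in these values was not tested.

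Per length of the union of annotated exons, Calr and Hspa5 were the most abundant of the 10 genes in WT, at 379 and 373 RPKM, and their libraries overlapped. The order of genes depends on that length, which is not the length of the transcripts expressed. Hsp90b1 followed at 291 RPKM and Sdf2l1 at 131 RPKM, each apart from its neighbours. Creld2 (84.2 RPKM) and Pdia4 (82.3 RPKM) overlapped each other, as did Manf (70.8 RPKM) with Xbp1 (63.1 RPKM) and Xbp1 with Herpud1 (60.5 RPKM), and Dnajb9 was lowest at 12.3 RPKM. In WT, Calr, Hspa5 and Hsp90b1 were above 99.2%, 99.2% and 99.0% of the genes tested per length, and in DKO above 98.7%, 98.7% and 98.5%. In DKO the first 5 ranks were the same genes, at 287 RPKM for Calr, 273 for Hspa5 and 244 for Hsp90b1, while Pdia4 (53.1 RPKM) moved from rank 6 to rank 9, behind Manf (69.9), Herpud1 (64.2) and Xbp1 (56.6). The DKO libraries of Pdia4 (42.5 to 60.7 RPKM) overlapped those of these 3 genes, so that its DKO rank is not set apart from theirs.

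By the root mean square difference of log2 levels over the 8 libraries, each gene centred on its own mean, the genes most like Hspa5 among 17377 others were As3mt (0.033), Itsn2 (0.044), Atp6ap1 (0.050), Wbp2 (0.056) and Hdac6 (0.057). All 5 were lower in DKO, with log2 fold changes of -0.54 to -0.40 (edgeR adjusted p from 0.00844 to 0.0318). That direction follows from their choice by likeness to Hspa5 and is not a separate result. The calls of As3mt, Itsn2 and Wbp2 were lost in 7, 6 and 5 of 18 alternatives. Atp6ap1 and Hdac6 lie on chromosome X, and the part of sex in their values was not tested. Of the 10 genes themselves, Pdia4 came closest to Hspa5, at rank 210 (0.13), then Hsp90b1 at rank 401 (0.15). Herpud1 was the farthest, at rank 5585 (0.34). Genes of similar size of change in the same 8 libraries score as alike by this measure, which says nothing of a shared control.

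The sensors and proteases that start the response were measured in full. Ern1, which encodes IRE1alpha, was lower in DKO, at 602, 602, 447 and 738 normalized counts in WT, against 341, 489, 317 and 336 in DKO (log2 fold change -0.69, SE 0.21, edgeR adjusted p = 0.0475). DKO replicate 2 was above WT replicate 3, and the call was lost in 10 of 18 alternatives. Mbtps2, the Golgi protease that completes the release of ATF6, was lower at 791 to 1173 normalized counts in DKO against 1281 to 1516 in WT (log2 fold change -0.57, SE 0.14, edgeR adjusted p = 0.0198). Its call was lost without WT replicate 1 (edgeR adjusted p = 0.0712) or WT replicate 2 (0.0679). Mbtps2 lies on chromosome X, and sex differed between the WT libraries and DKO replicates 1, 2 and 4. The part of sex in its values was not tested. Atf6 (log2 fold change 0.16), Atf6b (-0.20), Mbtps1 (-0.21) and Eif2ak3, which encodes PERK (0.04), did not pass the test (edgeR adjusted p from 0.137 to 0.911).

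Among 20 tested genes of the other ER chaperones and co-chaperones, 2 were lower in DKO and 2 higher, which is near the 10.8% lower and 10.7% higher over all genes tested, and the median was 0.04 on the log2 scale. Canx, the membrane-bound lectin that works beside calreticulin, was lower (log2 fold change -0.43, SE 0.11, edgeR adjusted p = 0.0240), as was Cnpy3, a co-factor of GRP94 for Toll-like receptors (-0.43, SE 0.11, edgeR adjusted p = 0.0257). Both calls were lost in 6 of 18 alternatives, among them the removal of WT replicates 1, 2 or 4 or of DKO replicate 4. Fkbp7, an ER prolyl isomerase, was higher at 331 to 532 normalized counts in DKO against 102 to 218 in WT (log2 fold change 1.23, SE 0.28, edgeR adjusted p = 0.0156), and its call was lost without WT replicate 1 (0.0514). The relatives of the 10 genes were not called: Sdf2 was at 0.10, Creld1 at 0.06 and Herpud2 at 0.32 (edgeR adjusted p from 0.159 to 0.839), and Cdnf, the relative of Manf, had at most 55.8 normalized counts and was not tested.

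Of 17 ER oxidoreductases, 3 were lower in DKO (17.6%, against 10.8% of all genes tested) and 0 higher (against 10.7%) by edgeR. Their median was -0.26 on the log2 scale. At an unadjusted p under 0.05 edgeR gave 9 lower and 0 higher, with no share over all genes to set beside them. DESeq2 called 6 lower, against 2393 of all 17378 genes, and limma-voom 3, against 2203. Both called 0 higher. Pdia3, the isomerase that works with calreticulin and calnexin, had 50850, 48458, 44052 and 53599 normalized counts in WT. In DKO it had 31444, 35388, 32066 and 32997 (log2 fold change -0.58, SE 0.08, edgeR adjusted p = 0.00308). No library of one group reached the other. Pdia6 (-0.48, SE 0.10, edgeR adjusted p = 0.0109) and P4hb, the main protein disulfide isomerase (-0.36, SE 0.11, edgeR adjusted p = 0.0422), were lower as well. The call of P4hb was lost in 9 of 18 alternatives, with adjusted p up to 0.121.

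Of 23 genes of ER-associated degradation, 4 were lower (17.4%, against 10.8% of all genes tested) and 0 higher (against 10.7%) by edgeR. Their median log2 fold change was -0.04. The unadjusted count of higher genes was 0, as were those of DESeq2 and limma-voom. The 3 with the smallest p were Ube2g2, a ubiquitin-conjugating enzyme of the pathway (-0.51, edgeR adjusted p = 0.00415), Vcp, the ATPase that pulls clients from the membrane (-0.40, 0.00895), and Sel1l, the adaptor of the HRD1 ligase (-0.42, 0.0131). Of 27 genes of translocation and ER to Golgi transport, 8 were lower (29.6%) and 2 higher (7.41%), beside the same shares of all genes (median -0.19). Without WT replicate 1 the lower genes were 5, when those over all genes tested also fell, from 1878 to 898. Without DKO replicate 1 the higher genes were 4, when 1915 of 17798 genes tested were higher. Spcs3, a signal peptidase subunit, was at -0.85 (edgeR adjusted p = 0.00519) and Sec31a, a COPII coat subunit, at -0.51 (0.00602). Kdelr3, one of the receptors that return ER residents from the Golgi, was at 2.74 (edgeR adjusted p = 0.00310), with 352 to 609 normalized counts in DKO against 29.3 to 104 in WT. The 93 tested genes of these 5 lists held 19 that were lower (20.4%, against 10.8% of all genes tested) and 4 that were higher (4.30%, against 10.7%).

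Of the 28 tested genes of the PERK-ATF4 arm, 20 were higher in DKO (71.4%, against 10.7% of all genes tested) and 0 lower by edgeR, with 0 lower also at an unadjusted p under 0.05 and by DESeq2 and limma-voom, and the median log2 fold change was 1.17. Atf4 itself had 5163, 5283, 4841 and 4126 normalized counts in WT, against 7532, 12064, 9306 and 12276 in DKO (log2 fold change 1.08, SE 0.16, edgeR adjusted p = 0.00346). Ddit3, which encodes CHOP, had 733, 644, 673 and 620 in WT, against 2640, 2570, 1548 and 6894 in DKO (2.35, SE 0.40, edgeR adjusted p = 0.00547). All DKO libraries were above all WT libraries for both genes. The 3 genes of the list with the smallest p were Pck2, a mitochondrial gluconeogenic enzyme (1.52, edgeR adjusted p = 0.000575), Trib3, a pseudokinase that restrains ATF4 (4.95, 0.000962), and Slc7a11, the cystine transporter (4.08, 0.00143). Slc7a11 was near the floor in WT, at 8.61 to 35.6 normalized counts against 255 to 499 in DKO. Trib3 had 133 to 169 in WT against 2115 to 9658 in DKO. The difference between this arm and the 10 ER genes was not tested.

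**Figure D3:**
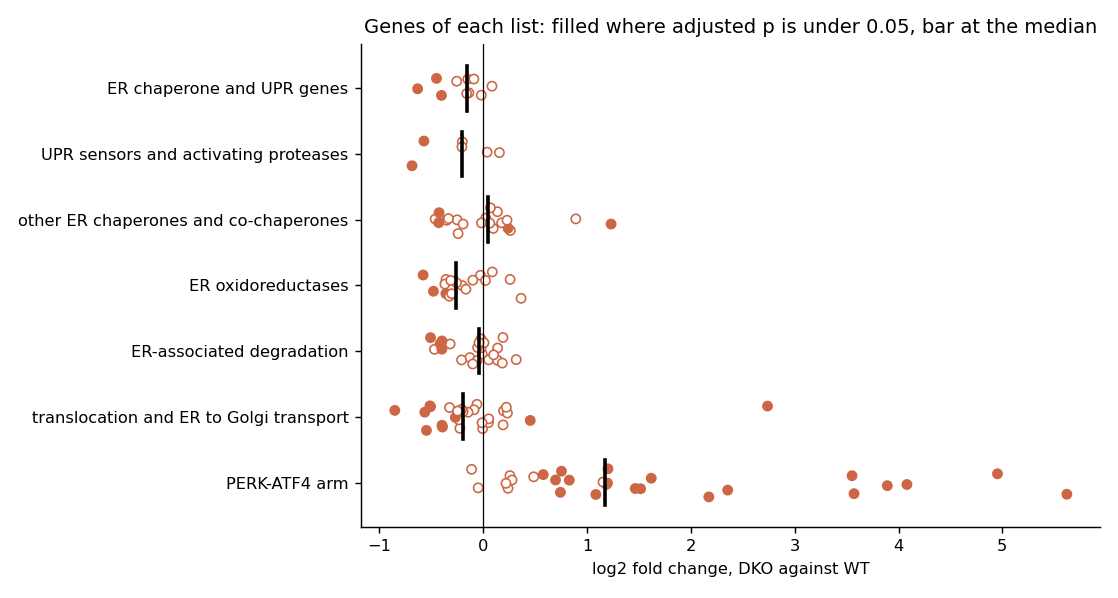
Log2 fold change of DKO against WT for each tested gene of the 10 ER genes, of 5 other ER lists and of the PERK-ATF4 arm, filled where the edgeR adjusted p was under 0.05, with a bar at the median of each list. The medians of the ER lists lie between -0.26 and 0.04, and that of the PERK-ATF4 arm lies at 1.17.

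The libraries in which the 10 genes were highest and lowest were compared with those of the PERK-ATF4 arm. The median of the 10 genes relative to the WT mean, on the log2 scale with a pseudocount of 1, was -0.42, -0.15, -0.42 and 0.17 in DKO replicates 1 to 4, and -0.09 to 0.15 in the WT libraries. That of the PERK-ATF4 arm was 0.61, 1.23, 0.72 and 1.48 in DKO replicates 1 to 4 and -0.09 to 0.06 in WT. DKO replicate 4 was the highest DKO library for 7 of the 10 ER genes and for 22 of the 28 genes of the PERK-ATF4 arm, and DKO replicate 2 was the highest for the other 3 and the other 6. With 4 libraries a group, no correlation was computed. In every DKO library the median of the PERK-ATF4 arm was above its WT range, whereas the median of the 10 genes was below its WT range in DKO replicates 1, 2 and 3 and above it in DKO replicate 4.

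**Figure D4:**
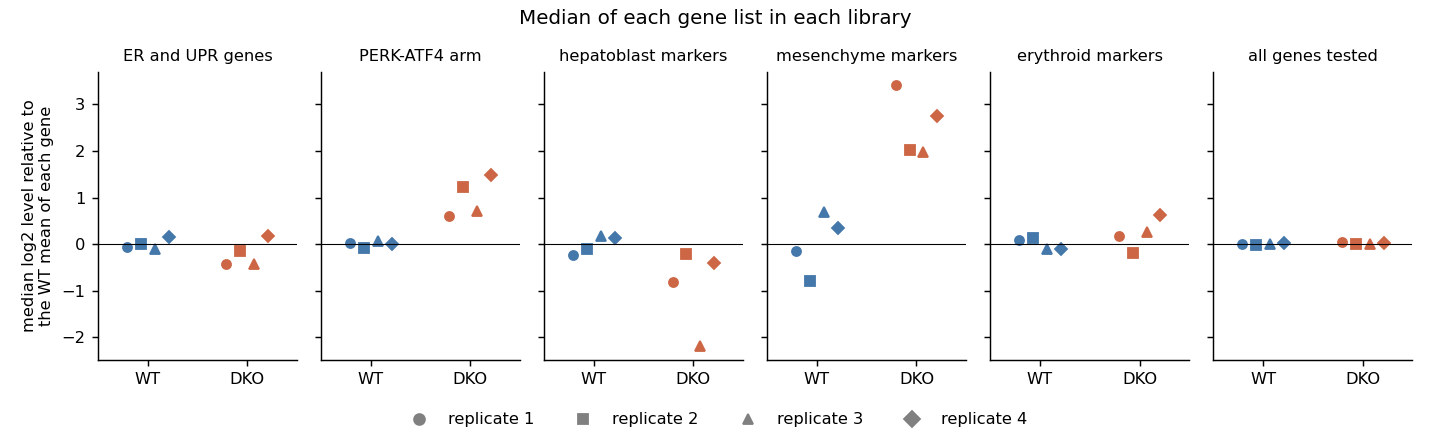
Median log2 level of each list in each library relative to the WT mean of each gene, for the 10 ER genes, the PERK-ATF4 arm, markers of hepatoblasts, mesenchyme and erythroid cells, and all genes tested. DKO replicate 4 is the highest of the DKO libraries for the ER genes (0.17) and for the PERK-ATF4 arm (1.48).

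Cell type markers also differed between the groups. Of the erythroid markers, Epor, the erythropoietin receptor, was higher in DKO (log2 fold change 0.47, edgeR adjusted p = 0.0123). All 10 hepatoblast markers had a negative log2 fold change (median -0.81), and DKO replicate 3 had the lowest sum. By edgeR 0 of them were called, with 4 lower at an unadjusted p under 0.05 and no share over all genes beside them. DESeq2 called 3 lower, against 2393 of all 17378 genes, and limma-voom 3, against 2203. Of 9 mesenchyme markers, 8 were higher in DKO (88.9%), where 10.7% of all genes tested were higher and 10.8% lower. Their sums were 302 to 1048 CPM in DKO against 50.2 to 135 CPM in WT, and DKO replicate 1 had the highest sum. Endothelial markers summed to 36.9 to 45.2 CPM in DKO against 60.4 to 79.2 in WT, with Stab2 at 0 in some library. Of 6, 1 was called, Pecam1, which was lower (16.7%, against 10.8% of all genes tested). Macrophage markers summed to 15.2 to 36.1 CPM against 54.9 to 74.6, with Adgre1, C1qa, C1qb, C1qc and Cd5l at 0 in some library, and 1 of 8 was called, Adgre1, which was lower. Megakaryocyte markers summed to 907 to 2617 CPM in DKO and 1218 to 1405 in WT. Plasma and B cell markers summed to 48.9 to 88.9 CPM in DKO and 53.8 to 67.5 in WT. Jchain and Cd79a were at 0 in some library. Of 3 tested, 0 were called by edgeR, with 2 lower at an unadjusted p under 0.05, again with no share over all genes. DESeq2 and limma-voom each called 1 lower, beside the totals over all genes given above. Kdelr3 (609 normalized counts) and Fkbp7 (532) were highest in DKO replicate 1 too, the library with the highest mesenchyme sum. The part of these cells in the values of Hspa5, Calr, Pdia4, Kdelr3 and Fkbp7 was not tested.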

How the data were processed

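RNAseq of S0 cells was analysed in 4 WT and 4 DKO libraries, grouped by the sample labels. The authors trimmed reads with fastp 0.21.0, mapped them to mm10 with HISAT2 2.2.1, dropped poorly mapped reads and obtained counts per gene from StringTie 1.3.3b through prepDE. Their whole numbers were deposited without normalization or pooling, so the deposited unit is raw counts. The table held 0 columns of other series. A symbol of the GENCODE annotation (GRCm38, the build also called mm10) was found for 52489 of 52636 identifiers, and all coordinates are of that build.

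Genes were filtered with filterByExpr, scaled by TMM and tested with the robust quasi-likelihood test of edgeR 4.0.16 in R 4.3.3, with genotype as the only term and Benjamini-Hochberg adjustment over the 17378 genes tested. A gene was called at an adjusted p under 0.05. For single genes, log2 normalized counts also went into an exact permutation test, two-sided, over 70 arrangements. RPKM used the length of the union of exons. The steps were tested on simulated counts. The 10 genes, the other lists and the tests were chosen with earlier results of these data known. Named were all 10 genes, the sensors, the 3 genes of smallest p in each other list, the paralogs, Atf4 and Ddit3, the 5 genes most like Hspa5, and markers, of which some are not reported here. Alternatives were DESeq2 1.42.0, limma-voom (limma 3.58.1), other scalings, filters and gene sets, the removal of 1 library at a time, a replicate-number block, and a fold-change threshold. No libraries were copies of each other (chi-square per gene within groups, 18.3 or more). At these depths the spread between libraries, not counting error, limited precision.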

Additional observations from a re-analysis of the deposited data

Results flagged for a closer look

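In 8 of 84 groups of 4 libraries, 1 library stood apart from the other 3 by more than the 95% critical value of Dixon's gap test, which chance alone passes in about 1 group in 20. Of the 10 ER genes, Dnajb9 stood at 1849 normalized counts in DKO replicate 4 against 980 to 1083 in the other DKO libraries, and Herpud1 at 11068 in the same library against 4660 to 5562. In WT replicate 4, Xbp1 stood at 10496 against 8407 to 8565 in the other WT libraries, and Hsp90b1 at 56101 against 49559 to 50405. Among the sensors and proteases, Ern1 had 489 in DKO replicate 2 against 317 to 341, and Mbtps1 had 3908 in DKO replicate 1 against 3276 to 3356. Sdf2 had 2388 in WT replicate 2 against 2165 to 2176. Cdnf had 0 in WT replicate 3 against 6.02 to 6.28 in the other WT libraries, a gap of a few counts.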

How the results depend on the processing

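No gene of the 10 was called higher in DKO under any of 20 alternatives, and the PERK-ATF4 arm had 15 to 25 higher genes. The count of the 10 genes called lower was 3 in the main comparison and 1 to 3 with each library left out in turn. It was 1, Pdia4, without WT replicate 1, 2 or 4, when the calls over all genes also fell to between 858 and 1011 higher and between 898 and 1050 lower. It was 2 with upper-quartile scaling, 0 with a log2 fold change beyond 1 also required and 7 in the libraries that express Ddx3y (where 10.3% of all genes were called lower), in which the median of the 10 genes was -0.44 and Herpud1 turned from 0.08 to -0.43. The latter comparison was chosen after seeing the data and set 1 DKO library against 4 WT libraries. Its count assumes for that library the spread of WT, which was smaller than that of DKO for all 10 genes, and is not a count of genotype differences. The cause of these shifts was not tested. Elsewhere the median lay between -0.32 and -0.04, and the signs of Sdf2l1, Manf and Herpud1, never called, changed in 2, 4 and 3 of 18 alternatives. Upper-quartile scaling moved the median of all genes from 0.03 to 0.14 and the calls to 2492 higher and 1242 lower, and without a low-count filter the median was 0.13.

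Replicate numbers of the sample titles did not pair the samples. The correlations of same-numbered libraries were -0.0893, 0.0433, -0.0206 and -0.00748, and no WT library correlated best with its own number. The library names of the DKO samples carry other numbers, which were not used for pairing. The highest correlation of a WT library with any DKO library was 0.112. With the replicate block the counts were 3 lower of the 10 genes, 16 higher of the PERK-ATF4 arm, and 1026 higher and 1083 lower over all genes. With 4 libraries a group and totals of at least 36981439 counts, differences of Dnajb9, Herpud1 and Xbp1 smaller than their intervals were not detectable.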
